A study of Mus musculus with 24 samples.

Results

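The genes described here are the mouse zinc-finger genes whose symbol is Zfp followed by digits, with Zfp36 and Zfp979 left out by name and with reads deep enough to read their RNA labelling in every library. A gene was kept when its 3′UTR interval, the longest where intervals overlapped, had a T coverage of at least 100 in each of the 24 libraries; T coverage is the number of times a genomic T was read. Of 354 Zfp genes in the tables, 219 met the bound, 134 fell below it and 29 of those had no read in any library. Members were selected on this coverage, the only measured value used to choose them. Just inside the bound lay Zfp831 with a lowest coverage of 113, Zfp758 with 114 and Zfp933 with 120, and just outside lay Zfp239 with 98, Zfp661 with 96 and Zfp58 with 95. Of the genes left out by name, Zfp36 had a lowest coverage of 199 and Zfp979 of 0. The whole series covers 20868 genes, and 9041 further genes met the same coverage bound and are called the other genes below.

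The cells were mouse preleukemic cells, made from c-Kit+ fetal liver cells of C57BL/6 background by retroviral expression of Meis1 and Hoxa9 and grown with SCF, IL-3 and IL-6. Control cells were Tut4 fl/fl and Tut7 fl/fl without Vav-iCre, and cells of the group labelled Tut4/7 Vav-iCre cDKO carried the same floxed alleles with Vav-iCre, a Cre driven in hematopoietic cells by the Vav promoter, so that both groups shared the transgenes and the floxed alleles. A pulse of 12 h with 4-thiouridine (4SU, 2.9 µM) labelled new RNA, which was followed after 0, 60, 180 and 540 min in medium without 4SU, with 3 libraries per genotype and time, described as biological triplicates. In SLAM-seq, alkylated 4SU is read as a T-to-C conversion, so the conversion rate, the percentage of covered T read as C, measures how much of a gene's RNA was made during the labelling. Abundance is given as CPM, counts scaled to the library's total of reads in 3′UTR intervals, a scale on which one gene can be compared between libraries.

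Zinc-finger proteins of the C2H2 type bind DNA through fingers in which a pair of cysteines and a pair of histidines hold a zinc ion. Many mouse members also carry a KRAB domain, through which they recruit the corepressor Trim28 and the histone methyltransferase Setdb1 to silence transposable elements, and such genes often lie in chromosomal clusters that grew by tandem duplication. TUT4 and TUT7 add uridines to the 3′ ends of RNA, which marks mRNAs with short poly(A) tails for decay, and mRNAs of transcriptional regulators are commonly short-lived.

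The shared sequence of the family is the linker that joins neighbouring fingers, with the amino acids TGEKP. It was found in the predicted protein of 157 of the 219 members. The windows below are genomic sequence of GRCm39 placed through the GENCODE vM39 annotation, read 5′ to 3′ on the coding strand, with the linker codons in capitals. They are shown for short-lived members and for the 2 members whose abundance differed between genotypes at every time.
Zfp599, chr9:22161393-22161419, minus strand: gttcacACAGGTGAGAAGCCCtatgaa
Zfp52, chr17:21780772-21780798, plus strand: attcatACTGGAGAGAAACCTtacaaa
Zfp568, chr7:29722374-29722400, plus strand: atccacACTGGGGAGAAGCCTcacaag
Zfp267, chr3:36219479-36219505, plus strand: gttcatACGGGAGAAAAGCCCtacaaa
Zfp946, chr17:22674034-22674060, plus strand: attcatACAGGAGAAAAACCTtacaaa
All 5 windows encode the same linker with different codons.

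By pattern search of GENCODE proteins, 215 members held at least 1 C2H2 finger. The 4 without a match were Zfp330, Zfp503, Zfp703 and Zfp839. The median was 10 fingers and the largest number 36. A total of 180 members (82.2%) had 5 or more fingers, against 1.02% of the other genes, and 112 (51.1%) matched a KRAB A box pattern, against 0.669% of the other genes. The median protein was 580 amino acids long, with a range of 76 to 2698. The measured 3′UTR intervals of the members had a median length of 1354 bases against 1056 for the other genes, and their T content was close to that of the other genes, with medians of 29.4% and 29.2%. The number of T positions that can report a conversion per base was thus similar in both sets.

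The members were mRNAs of low abundance. Their mean over the 24 libraries ranged from 2.78 to 258 CPM with a median of 15.1 CPM and an interquartile range of 7.90 to 30.6 CPM, whereas the median of the other genes was 44.1 CPM, and 183 of 219 members lay below it. The 5 highest were Zfp871 (258.0 CPM), Zfp207 (250.9 CPM), Zfp706 (231.7 CPM), Zfp703 (201.6 CPM) and Zfp91 (185.7 CPM). Of these, Zfp207 is known as a partner of the spindle checkpoint protein Bub3, Zfp703 as a transcriptional corepressor and Zfp91 as a ubiquitin ligase. All members together took 0.54% to 0.60% of the 3′UTR reads of a library, from 25182 to 41638 reads. Reads that map to several places were few for most members, with 185 of 219 under 1%, and exceeded 50% in 11.

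Libraries held 9552906 to 13882269 filtered reads, of which 4380238 to 7041311 fell in 3′UTR intervals. At 0 min Tut4 had 76.5 ± 9.16 CPM (SD, n = 3) in control and 22.2 ± 6.92 CPM in cDKO, and Tut7 had 40.0 ± 5.25 and 18.7 ± 1.81 CPM, although 3′ tags of this kind count transcripts and do not read the deleted part of the gene. The cultures also differed in cell type markers. Over all times, the 10 erythroid markers summed to 0.372 to 3.07 CPM in control and 1307 to 2091 CPM in cDKO, with Alas2, Epor and Car1 at 0 in every group. The 9 mast cell and basophil markers summed to 16.7 to 35.2 and 147 to 322 CPM, with Fcer1a, Cma1 and Tpsb2 at 0 in every group. The 10 neutrophil markers summed to 7492 to 8460 CPM in control and 1895 to 3098 CPM in cDKO, the 8 monocyte markers to 4898 to 5912 and 3989 to 4886 CPM, and the 7 megakaryocyte markers to 2.59 to 9.87 and 7.32 to 23.7 CPM. The 8 progenitor markers summed to 3409 to 4017 and 4582 to 7681 CPM, with the native Meis1 3′UTR at 0 in all control libraries, and Y-linked genes to 0 to 0.205 CPM in control and 4.14 to 211 CPM in cDKO. The sums hide single markers. By the abundance test used below, Hoxa9 was the only progenitor marker called higher in cDKO, at all 4 times. Spi1 was called lower at all 4 times, Ptprc at 60, 180 and 540 min and Kit at 180 min. Among the monocyte markers Adgre1 was called higher at all 4 times. Of the mast cell and basophil markers, Cpa3, Gata2 and Hdc were called higher at all 4 times. Of the erythroid markers only Hbb-bt had enough reads to be tested between genotypes. These lists touch each abundance comparison between genotypes below, their part in those results was not tested, and in bulk RNA fewer cells of a type and less RNA per cell cannot be told apart.

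The first question was how strongly the zinc-finger mRNAs were labelled and how fast the label left them. Pooled over all members, the conversion rate in control at 0 min was 1.94%, 1.93% and 1.91% in the 3 libraries. It was 1.40%, 1.42% and 1.38% at 60 min, 0.597%, 0.608% and 0.612% at 180 min, and 0.121%, 0.133% and 0.129% at 540 min. The replicates lay close together at each time and no time point overlapped with another. In cDKO the pooled rate was 1.05%, 1.03% and 0.645% at 0 min, 0.785%, 0.770% and 0.505% at 60 min, 0.343%, 0.329% and 0.258% at 180 min, and 0.101%, 0.114% and 0.0906% at 540 min. Labelling in cDKO was thus lower at 0, 60, 180 and 540 min without overlap with control, and replicate 3 was the lowest of the cDKO libraries at each time. The lower label was not particular to the zinc-finger genes, since the other genes had 1.62%, 1.67% and 1.62% in control and 0.820%, 0.844% and 0.541% in cDKO at 0 min.

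Relative to the other genes of the same library, the members began above and ended below. The ratio of the member rate to that of the other genes at 0 min spanned 1.16 to 1.19 in control libraries and 1.19 to 1.28 in cDKO libraries. At 60 min the ratio lay at 0.934 to 0.950 for control and at 0.973 to 1.02 for cDKO. At 180 min it was 0.542 to 0.581 and 0.577 to 0.668, and at 540 min 0.389 to 0.424 and 0.528 to 0.558. The member rates at 540 min, 0.0906% to 0.133%, lay close to the 0.1% subtracted below as a background. The genotype difference in the ratio at 540 min is thus read near the floor. The order of the sets was therefore the opposite at the end of the chase of what it was at the start, in every library of both genotypes.

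**Figure D1:**
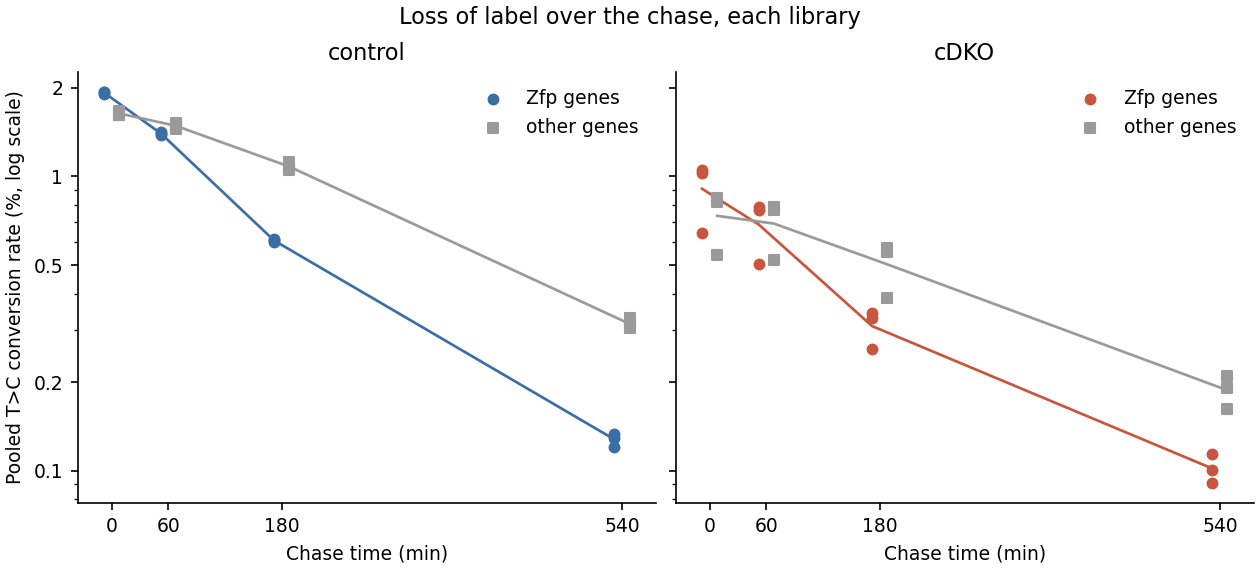
Pooled T-to-C conversion rate (percent of covered T, log axis) of the 219 zinc-finger genes and of the other genes against chase time in minutes, with a point for each library, a line through the means of each time and control and cDKO in separate panels. The members start above the other genes, at 1.91% to 1.94% in control, and end below them, at 0.121% to 0.133%.

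For single genes, labelling at 0 min was compared between genotypes relative to the rate of the whole library. None of 187 members with at least 50 conversions was called by edgeR's quasi-likelihood test with Benjamini-Hochberg adjustment, where 0.32% of all genes tested were called. At an unadjusted p below 0.05 there were 8 members (4.28%, against 8.09% of all genes), and DESeq2 called 0 members. The 3 members with the smallest p were Zfp639, at 2.44%, 2.80% and 2.42% in control and 1.72%, 1.67% and 2.02% in cDKO (log2 relative difference 0.66, SE 0.22, adjusted p = 0.36), Zfp111 (0.98, SE 0.35, adjusted p = 0.42) and Zfp267 (0.66, SE 0.26, adjusted p = 0.47). Zfp639 was lower in cDKO in absolute rate and higher relative to its library, and the same held for Zfp267, so the sign depends on whether the rate of the library is taken into account.

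Half-lives were obtained by fitting an exponential decay to rates divided by the genotype's mean at 0 min, for genes whose SD at 0 min was below 0.3 of the mean in both genotypes. The bound was met by 61 of 219 members and by 3651 of the 9041 other genes; 73 members failed it in control and 145 in cDKO. The median half-life of the 61 members was 96.2 min in control (interquartile range 77.0 to 138 min), against 226 min for the other genes. In control 46 of the 61 (75.4%) lay below 139.9 min, the lower quartile of all genes, 56 lay below the median of all genes and 1 above the upper quartile. Without the bound on the SD, the median of all 219 members was 95.7 min in control, and 150 of them (68.5%) lay below the lower quartile of all genes fitted that way. The difference from the other genes was thus present in members that were too variable for the filter as well. Its size depended on the fit: a straight line through the log rates with a free intercept gave 129 min for the members and 152 min for the other genes. A rate of 0 has no log, so libraries in which a gene had no conversion were left out of its straight-line fit.

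In cDKO the median half-life of the 61 members was 117 min (interquartile range 82.9 to 169 min) against 256 min for the other genes. Of the 61, 41 (67.2%) had the longer value in cDKO, against 68.7% of the other genes, and the median log2 ratio of cDKO over control was 0.159 for the members and 0.189 for the other genes. By replicate, the members' median came to 98.5, 99.5 and 93.9 min for control and to 131, 117 and 92.4 min for cDKO, so that the genotypes overlapped. Fitted to the pooled rates of all members, the half-life was 114, 118 and 117 min in the control replicates and 124, 124 and 154 min in those of cDKO, where they did not overlap, with replicate 3, the library series with the lowest label, at the top. Subtracting a background conversion rate of 0.1% turned the members' median log2 ratio to -0.071, a move within the spread of that ratio between replicates (0.263). In that setting 44 members met the SD bound, and the ratio of the other genes fell as well, from 0.189 to 0.047. With the straight-line fit the members' ratio was 0.415 (49 of 61 longer in cDKO), against 0.327 for the other genes. The size and the sign of the members' ratio, and whether it lay above or below that of the other genes, therefore depended on the fit and the background.

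**Figure D2:**
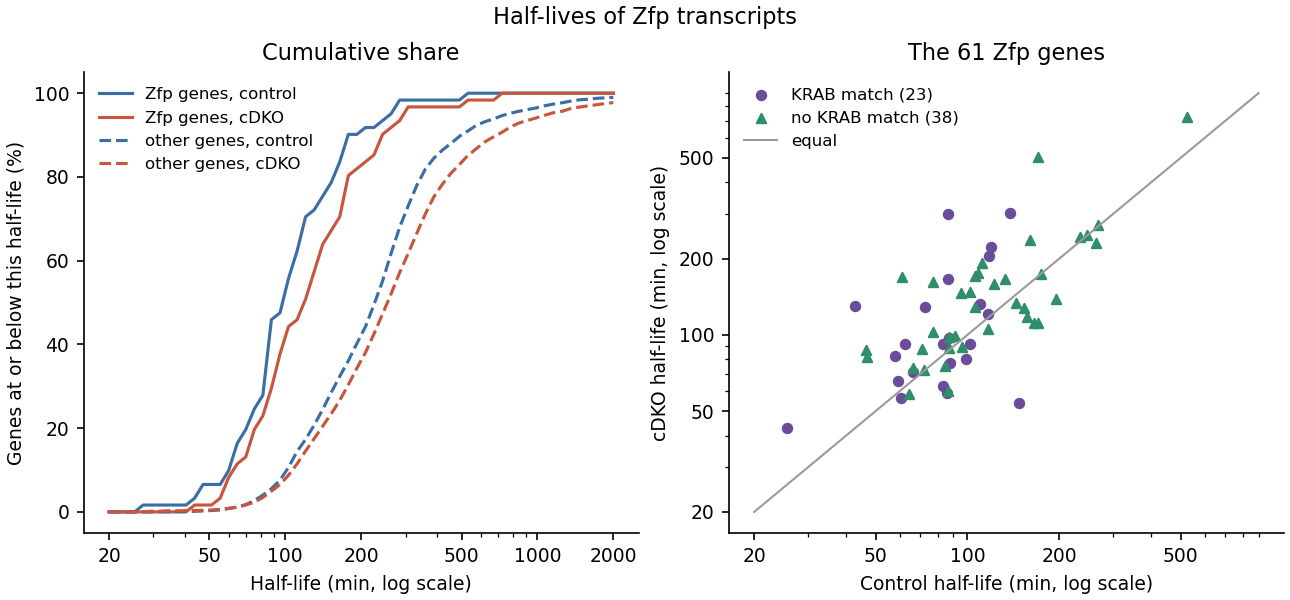
Half-lives of the members that met the SD bound and of the other genes, as cumulative shares of genes in percent against half-life in minutes on a log axis, by genotype (left), and the cDKO against the control half-life of each of the 61 members on log axes with the line of equality, by KRAB match (right). The curves of the members lie to the left of those of the other genes, with medians of 96.2 and 226 min in control.

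The shortest half-lives in control belonged to Zfp599 at 25.6 min, Zfp52 at 42.9 min, Zfp180 at 46.4 min, Zfp367 at 46.7 min and Zfp568 at 58.1 min. Zfp568 is a KRAB protein required for mouse embryonic development. For Zfp599 the control replicates gave 63.4, 20.4 and 18.2 min, and the cDKO replicates 46.0, 84.6 and 17.6 min. For Zfp367 the control replicates gave 40.3, 71.9 and 35.4 min, and the cDKO replicates 81.0, 75.4 and 99.5 min. Only the latter pair of sets did not overlap, although the straight-line fit gave Zfp367 a log2 ratio of -0.21 in place of 0.81, and the replicates of one gene differed by up to several fold, which is the precision of a half-life at these abundances. The linker windows of Zfp599, Zfp52 and Zfp568 are shown above.

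The longest half-lives in control were those of Zfp296 (526 min), Zfp692 (268 min), Zfp106 (264 min), Zfp706 (247 min) and Zfp956 (233 min). None of these matched the KRAB pattern. Zfp296, at a mean of 6.99 CPM, was poorly measured. Its control replicates gave 363, 2429 and 429 min, and its cDKO replicates 234, 10000 and 408 min, the second being the highest value the fit allowed. Control replicates of Zfp956 gave 87.3, 394 and 298 min. Zfp706, a small protein with 1 finger, was among the most abundant members and the best measured of this group, with control replicates of 252, 195 and 296 min and cDKO replicates of 262, 257 and 219 min. Its conversion rate in control was 1.53%, 1.63% and 1.68% at 0 min, 1.57%, 1.33% and 1.66% at 60 min, 1.09%, 0.959% and 1.40% at 180 min, and 0.0888%, 0.113% and 0.172% at 540 min. The rates of 60 min overlapped those of 0 min and those of 540 min lay below all earlier ones. By contrast Zfp703, of similar abundance, had 1.87%, 1.78% and 1.81% at 0 min but 0.906%, 1.28% and 0.870% at 60 min and 0.216%, 0.338% and 0.356% at 180 min. At 60 min and 180 min all control libraries of Zfp703 lay below all those of Zfp706.

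The largest log2 ratios of cDKO over control half-life were those of Zfp748 (1.79, 86.6 to 300 min), Zfp52 (1.60, 42.9 to 131 min), Zfp768 (1.56, 170 to 502 min), Zfp64 (1.46, 61.2 to 169 min) and Zfp809 (1.14, 138 to 304 min). Zfp809 is known for silencing murine leukemia virus through its primer binding site, and human ZFP64 for sustaining MLL expression in leukemia. The Zfp748 replicates overlapped, at 93.6, 168 and 49.97 min for control and 800, 138 and 168 min for cDKO, and its ratio ran from 0.79 to 2.28 with 1 replicate left out. Control replicates of Zfp768 gave 126, 243 and 151 min, and cDKO replicates 426, 335 and 1618 min. Control replicates of Zfp64 gave 80.8, 38.6 and 80.3 min, and cDKO replicates 252, 163 and 81.2 min. Control replicates of Zfp809 gave 160, 166 and 105 min, and cDKO replicates 218, 224 and 654 min. All 3 sets were without overlap, narrowly for Zfp64, whereas for Zfp52 the cDKO replicates gave 442, 1 and 222 min, the second being the lowest value the fit allowed.

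The smallest log2 ratios were those of Zfp808 (-1.46, 148 to 53.7 min), Zfp638 (-0.61), Zfp346 (-0.56), Zfp746 (-0.53) and Zfp799 (-0.53). Zfp346 binds double-stranded RNA, and Zfp638 takes part in silencing unintegrated retroviral DNA. Control replicates of Zfp808 gave 141, 268 and 69.5 min, and cDKO replicates 74.7, 42.0 and 52.0 min, which overlap in 1 value. With 1 replicate left out, the ratio of Zfp346 reached 0.06 (without cDKO replicate 2) and that of Zfp799 reached 0.19 (without control replicate 3), while Zfp638 ran from -1.02 to -0.23 and Zfp746 from -1.01 to -0.15. The straight-line fit turned the ratios of Zfp346, Zfp746, Zfp799 and Zfp808 positive (0.85, 1.84, 0.91 and 0.08), so that the direction of these 4 depended on the fit. Zfp746 had no conversion in any control library at 540 min or any cDKO library at 180 min, and its straight-line fit left those out. Zfp808 and Zfp638 are among the 11 members with more than 50% of reads mapping to several places.

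A test of single genes gave no call. The genotype by hour term on conversions, with T coverage as offset, called 0 of 213 members tested by edgeR's quasi-likelihood test with Benjamini-Hochberg adjustment, where 0.13% of all genes were called. At an unadjusted p below 0.05 there were 27 members (12.7%, against 17.2% of all genes), and DESeq2 called 4 members (1.88%, against 2.25% of all genes). The median of the term was 0.101 log2 units per hour in the members and 0.070 in all genes, positive values being slower loss in cDKO. The 3 members with the smallest p were Zfp592 (0.42, SE 0.11, adjusted p = 0.077), Zfp143 (0.47, SE 0.13, adjusted p = 0.077) and Zfp386 (0.49, SE 0.14, adjusted p = 0.095). Zfp143 is a transcriptional activator that binds promoters. Its rate in control was 2.25%, 2.62% and 2.65% at 0 min and 0%, 0% and 0.0606% at 540 min, and in cDKO 0.723%, 1.08% and 0.899% at 0 min and 0.225%, 0.0839% and 0.0324% at 540 min. The genotypes did not overlap at 0 min, where control was higher, and overlapped at 540 min, where the highest value was that of cDKO replicate 1.

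KRAB members had shorter half-lives than the rest of the family by their medians. The 23 KRAB members with a half-life had a median of 86.6 min in control (25.6 to 148 min) and 92.0 min in cDKO, and the 38 others had 107 min (46.4 to 526 min) and 132 min. By the number of fingers, the control median was 106 min for 0 to 4 fingers (n = 15), 101 min for 5 to 9 (n = 18) and 86.6 min for 10 or more (n = 28). Spearman's rho of the control half-life with the number of fingers was -0.22 and with the 3′UTR length -0.25 over the same 61 genes, which share their libraries. These are weak relations given as a description.

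The AU-rich heptamer TATTTAT, a core of elements bound by the Zfp36 family of decay factors, was searched on the transcript strand in the last 300 bases of each transcript. It was found in 14 of 204 members with a tail of that length (6.86%) and in 729 of 7460 other genes (9.77%). With it, the median control half-life was 77.0 min (n = 5 members), without it 96.2 min (n = 51). The windows of Zfp180, among the shortest-lived members, and of Zfp143 are shown with the heptamer in capitals, 105 and 128 bases before the transcript end in GRCm39.
Zfp180, chr7:23807026-23807048, plus strand: taataatcTATTTATtgatactg
Zfp143, chr7:109694506-109694528, plus strand: gtgtaaatTATTTATttttgctc
The heptamer was thus no more frequent in the zinc-finger genes than elsewhere, and a match is no binding site by itself. None of the 3 genes of the Zfp36 family was called for abundance between genotypes at any time.

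Abundance differed between genotypes in few members. At 0 min 4 were called higher in cDKO, where 6.72% of all genes tested were, and 2 lower, where 6.64% were, by edgeR's quasi-likelihood test with Benjamini-Hochberg adjustment. At 60 min 10 were called higher (9.97% of all genes) and 10 lower (10.2%), at 180 min 7 higher (9.1%) and 7 lower (9.78%), and at 540 min 2 higher (8.89%) and 10 lower (10.4%). Calls among the 219 members were 2.74%, 9.13%, 6.39% and 5.48% in time order, against 13.4%, 20.2%, 18.9% and 19.2% of all genes, and these counts compare genes of lower abundance with genes of higher abundance. The median log2 difference of the members was -0.12, -0.01, -0.02 and -0.07. Over all times 33 members were called at least once, 14 of them higher and 19 lower with none in both directions, and 186 never. The 33 are 15.1% of the members, against 31.7% of all genes tested at each time. Members had to meet the coverage bound in both genotypes, which leaves out genes near 0 in one of them, and the genes tested did not. Zfp979, left out by name, was called lower in cDKO at all 4 times by edgeR, with log2 differences from -11.07 to -8.24. The members called at all 4 times were Zfp946 and Zfp267, and 22 of the 33 were called at 1 time. The shares of all genes called at all 4 times or at 1 time were not counted.

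**Figure D3:**
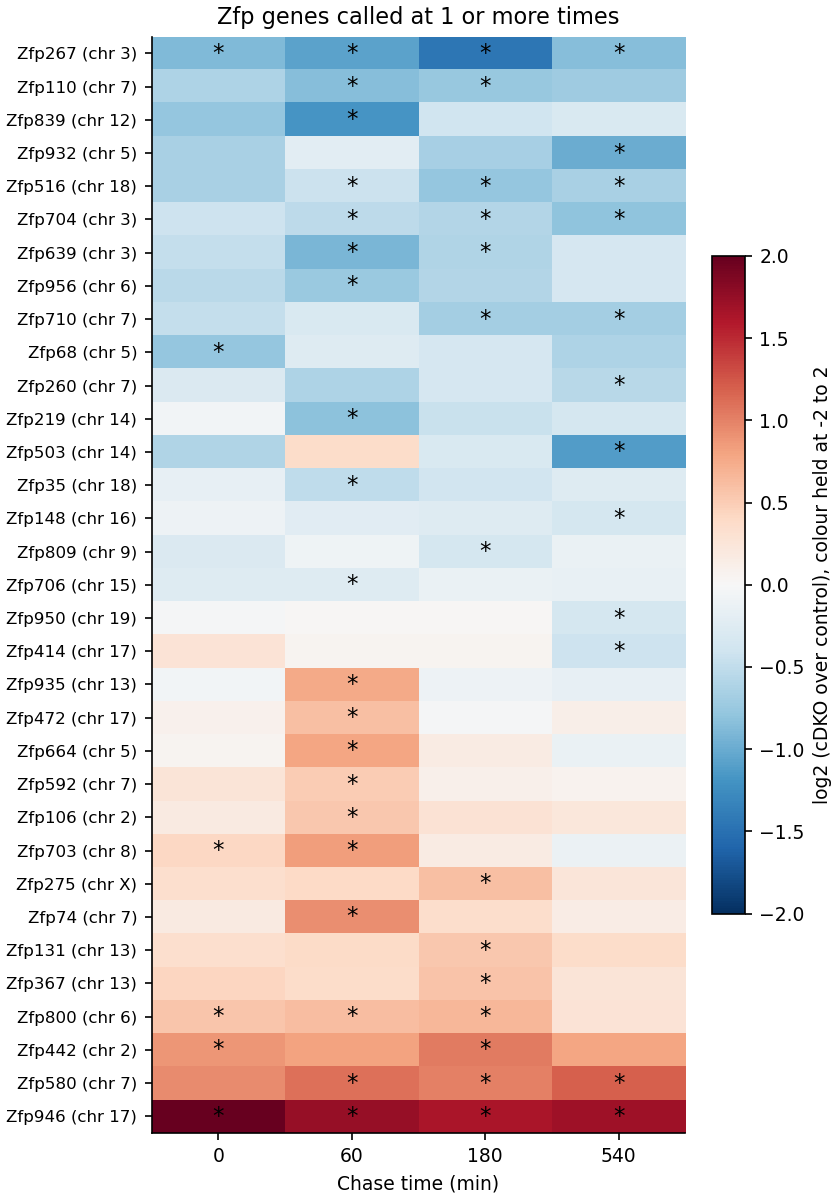
Log2 difference in abundance, cDKO over control, of the 33 members called at any time, as a colour (held at -2 and 2) in a grid of genes by chase time in minutes, with a star where the adjusted p was below 0.05. Zfp946 stands highest at 1.63 to 2.10 and Zfp267 lowest among those called at every time, at -1.44 to -0.85.

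Of the members called at 0 min besides Zfp946, Zfp800 had 42.2, 41.9 and 43.7 CPM in control and 66.4, 54.5 and 65.1 CPM in cDKO. Its log2 difference was 0.55 (SE 0.13, edgeR adjusted p = 0.0204). The Zfp703 libraries held 186, 171 and 160 CPM in control and 234, 195 and 259 CPM in cDKO (0.42, SE 0.12, edgeR adjusted p = 0.0448). Both genes were higher in all 3 cDKO libraries without overlap. Zfp442, a KRAB gene of low level, had 6.77, 9.02 and 7.74 CPM in control and 13.2, 16.6 and 12.9 CPM in cDKO, a log2 difference of 0.88 (SE 0.25, edgeR adjusted p = 0.0466) in which 13.5% of the reads mapped to several places. Zfp68, also a KRAB gene, was lower, with 17.8, 18.0 and 19.6 CPM in control and 10.7, 10.9 and 10.5 CPM in cDKO (-0.77, SE 0.20, edgeR adjusted p = 0.0320). These calls at 0 min were sensitive to single libraries: between 1 and 17 members were called when 1 library was left out, with 1 without control replicate 2 or replicate 3, 2 without control replicate 1, 3 without cDKO replicate 1 and 17, 13 of them lower, without cDKO replicate 2. In that last setting 2223 of all 10421 genes tested were called.

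Several members kept one direction over the chase and passed at some times only. Zfp580 had log2 differences of 0.95, 1.11, 1.02 and 1.20 at 0, 60, 180 and 540 min and was called from 60 min on. Zfp516, a transcription factor known from brown fat, had -0.64, -0.44, -0.77 and -0.65 and was likewise called from 60 min on. Zfp110, with differences of -0.61, -0.85, -0.76 and -0.71, was called at 60 and 180 min. These 3 were chosen after their values were seen. Of the 33 members called at any time, 11 matched the KRAB pattern (33.3%), against 51.1% of all members, in a comparison not matched for abundance.

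The largest difference, that of Zfp946, rested on reads that also map elsewhere. In its 3′UTR interval (mm10 chr17:22455839-22456689) the level at 0 min was 9.29, 14.5 and 20.3 CPM in control and 49.5, 87.2 and 50.8 CPM in cDKO, with log2 differences of 2.10 (SE 0.32, edgeR adjusted p = 0.00297), 1.74, 1.63 and 1.70 in time order. Of its reads, 96.8% mapped to several places. Without those, 10, 12 and 2 reads were left in control and 5, 5 and 9 in cDKO at 0 min, the log2 difference was -0.13 (edgeR adjusted p = 0.94) at 0 min and 0.42 (edgeR adjusted p = 0.57) at 540 min, and the gene was too low to be tested at 60 and 180 min. The difference was thus not measurable in uniquely placed reads.

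A search of the last 300 bases of the Zfp946 transcript against GRCm39 found a single further copy, with 293 bases at 100% identity, at chr10:130170909-130171201 on the plus strand. This lies inside Tespa1, a gene for a protein of T cell receptor signalling, on the same strand and outside its annotated exons. The last 30 bases of the match are identical.
Zfp946, chr17:22675637-22675666, plus strand: taactacaataaaattcattggtttatgaa
Tespa1 intron, chr10:130171172-130171201, plus strand: taactacaataaaattcattggtttatgaa
The Tespa1 3′UTR, counted separately, had 50, 44 and 94 reads in control and 280, 462 and 353 in cDKO at 0 min, and log2 differences of 2.79, 2.67, 2.11 and 1.80 in time order (edgeR adjusted p = 0.000122 at 0 min). Reads of the Zfp946 interval were 48, 77 and 134 in control and 217, 494 and 232 in cDKO. For both, the lowest of the cDKO counts lay above the highest of the control counts. Tespa1 was looked at only after the copy was found, and which of the 2 loci the shared reads came from was not tested.

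**Figure D4:**
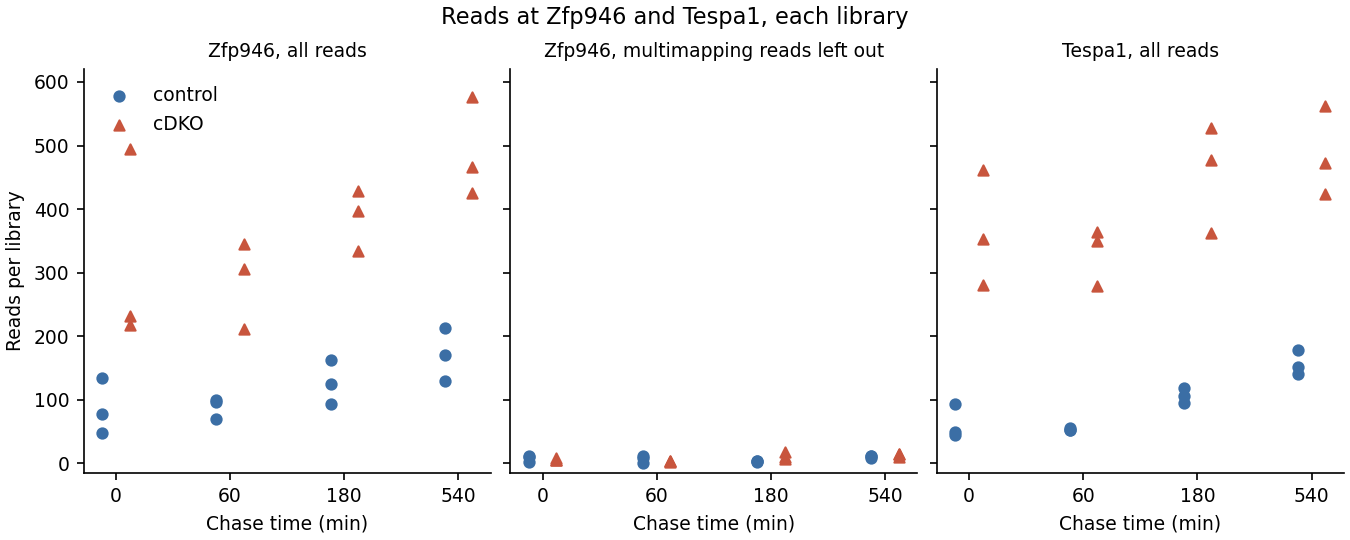
Reads per library at Zfp946, at Zfp946 without reads that map to several places, and at Tespa1, with a point for each of the 24 libraries by genotype and chase time in minutes. Within each chase time Zfp946 and Tespa1 are higher in all cDKO libraries than in control, and the Zfp946 reads left without multimapping are few in both genotypes.

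Of the 11 members with more than 50% of such reads, 10 had at least 1 other genomic copy of 85 bases or more at 95% identity, among them Zfp960, whose last 300 bases are identical to those of Zfp97, and Zfp433. Values of these 11 genes do not belong to 1 locus with certainty. Leaving out reads that map to several places gave 5, 19, 14 and 11 members called in time order. Over all genes, 1320 of 10058, 1993 of 10008, 1880 of 10008 and 1917 of 10143 tested were then called.

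Zfp267 was the member lower at all 4 times. It lies on chromosome 3, with its 3′UTR interval at mm10 chr3:36166221-36170341, has 14 fingers with a KRAB match, and only 0.6% of its reads mapped to several places. At 0 min it had 49.0, 61.8 and 64.0 CPM in control and 38.6, 29.5 and 25.6 CPM in cDKO, and over all times the control libraries lay at 42.2 to 70.8 CPM and the cDKO libraries at 21.6 to 38.6 CPM, without overlap. The log2 differences were -0.89 (SE 0.18, edgeR adjusted p = 0.0116), -1.08, -1.44 and -0.85 in time order. Genes of chromosome 3 as a whole were lower in cDKO. Their median log2 difference was -0.51, -0.48, -0.52 and -0.52, whereas those of the other chromosomes lay between -0.045 and 0.107 over all times. Relative to the chromosome's median, Zfp267 lay at -0.38, -0.60, -0.92 and -0.33. Of the other 3 members on chromosome 3, Zfp704 was called lower at 60, 180 and 540 min, Zfp639 at 60 and 180 min, and Zfp687 at none, and at 0 min they lay 0.10, 0.04 and 0.28 above the chromosome's median. A change of the gene and a shift of the chromosome cannot be told apart for these members.

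The steadiness of the levels over the chase bears on the half-lives, since a fit to rates takes abundance as constant. In control, 8 members were higher at 540 than at 0 min (8.06% of all genes were) and 3 lower (8.18%), by edgeR's quasi-likelihood test with Benjamini-Hochberg adjustment. The largest increases were those of Zfp946 (log2 0.80), Zfp329 (0.79), Zfp638 (0.62) and Zfp950 (0.59). Without reads that map to several places, the first was 0.20 (edgeR adjusted p = 0.87) and Zfp638 to 0.38 (edgeR adjusted p = 0.47), and neither was called. Zfp329 had 20.3, 32.9 and 29.6 CPM at 0 min and 53.6, 46.9 and 47.0 CPM at 540 min (SE 0.16, edgeR adjusted p = 0.0021). Zfp950, a KRAB gene, had 76.1, 75.4 and 69.9 CPM at 0 min and 112, 110 and 119 CPM at 540 min (SE 0.09, edgeR adjusted p = 0.00036). Zfp958 was lower, with 15.7, 13.5 and 14.1 CPM at 0 min and 6.83, 7.15 and 7.38 CPM at 540 min (log2 -1.05, SE 0.24, edgeR adjusted p = 0.0065). The other decreases were Zfp869 (-0.45) and Zfp91 (-0.29). The 0 and 540 min levels of Zfp329, Zfp950 and Zfp958 did not overlap in control.

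In cDKO no member was called over the chase, where 0.117% of all genes were, and DESeq2 called 0. By edgeR 16 members had an unadjusted p below 0.05 (7.31%, against 11.1% of all genes). Within cDKO, libraries with the same replicate number deviated together, and with the replicate number as a block 1.25% of all genes and 1 member were called. That member was Zfp703, lower at 540 min by -0.50 (SE 0.10, edgeR adjusted p = 0.045), with 234, 195 and 259 CPM at 0 min and 184, 130 and 189 CPM at 540 min, lower in each of the 3 replicate numbers. The difference between the genotypes' chase changes was tested directly: none of the 219 members was called by edgeR (0% of 10651 genes). That test had no term for the replicate number, by which the cDKO libraries deviated together, so the lack of calls does not show that the changes were alike. At an unadjusted p below 0.05 were 10 of the 219 members and 557 of the 10651 genes. The calls in control alone therefore do not show that the genotypes differed. Smallest in p among the members was Zfp414, with a log2 difference of -0.66 (SE 0.19, edgeR adjusted p = 0.85).

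Members lay on 20 chromosomes, with 53 on chromosome 7, 29 on chromosome 17 and 16 each on chromosomes 8 and 13. Taking members whose starts were at most 1 Mb apart, 122 of 219 formed 21 clusters of 3 or more, 8 of them on chromosome 7. With gaps of 0.5 Mb there were 19 clusters of 106 members, and with 2 Mb 20 clusters of 130. Of the clustered members 87 (71.3%) matched the KRAB pattern, against 25 (25.8%) of those outside. Clustered members had a lower median level, 10.6 against 17.3 CPM, and a shorter median half-life over all members, 89.3 against 106 min in control and 108 against 129 min in cDKO. Called between genotypes at any time were 13 of the 122 clustered members (10.7%) and 20 of the 97 others (20.6%). Both lay below the 31.7% of all genes, which did not have to meet the coverage bound of the members.

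In 18 of the 21 clusters the members lay on both sides of 0 at 0 min, and in the other 3 all lay below it. The largest, on chromosome 17 (mm10 chr17:21027143-23557659), held 15 members, 14 with KRAB, whose log2 differences at 0 min ran from -0.72 (Zfp947) to 2.10 (Zfp946) with a median of -0.28. Only Zfp946, with its shared reads, was called there. A second group of 9 on this chromosome (chr17:32765496-33631716) ran from -0.65 (Zfp799) to 0.27 (Zfp414). In chromosome 13 (chr13:67069398-67707985) a group of 9 KRAB genes ran from -1.09 (Zfp456) to 0.46 (Zfp953) and none was called at any time.

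On chromosome 7, a group of 9 (chr7:127237051-127885996) ran from -0.41 (Zfp764) to 0.44 (Zfp553) at 0 min. The group of 7 at chr7:29777565-30107614, which holds Zfp568, ran from -0.94 (Zfp27) to 0.40 (Zfp566). The groups of 6 ran from -0.59 (Zfp579) to 0.95 (Zfp580) and from -0.61 (Zfp110) to 0.80 (Zfp551). A group of 7 on chromosome 6 (chr6:47866948-48623227) ran from -0.54 (Zfp956) to 0.14 (Zfp398). Only 3 of the 21 clusters held a member called at 0 min, namely Zfp946, Zfp442 and Zfp68. Within 10 Mb of Tut7 lay 14 members, 2 of which were called at any time, and within 10 Mb of Tut4 lay none. Called at any time were 15.1% of all members and 31.7% of all genes.

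**Figure D5:**
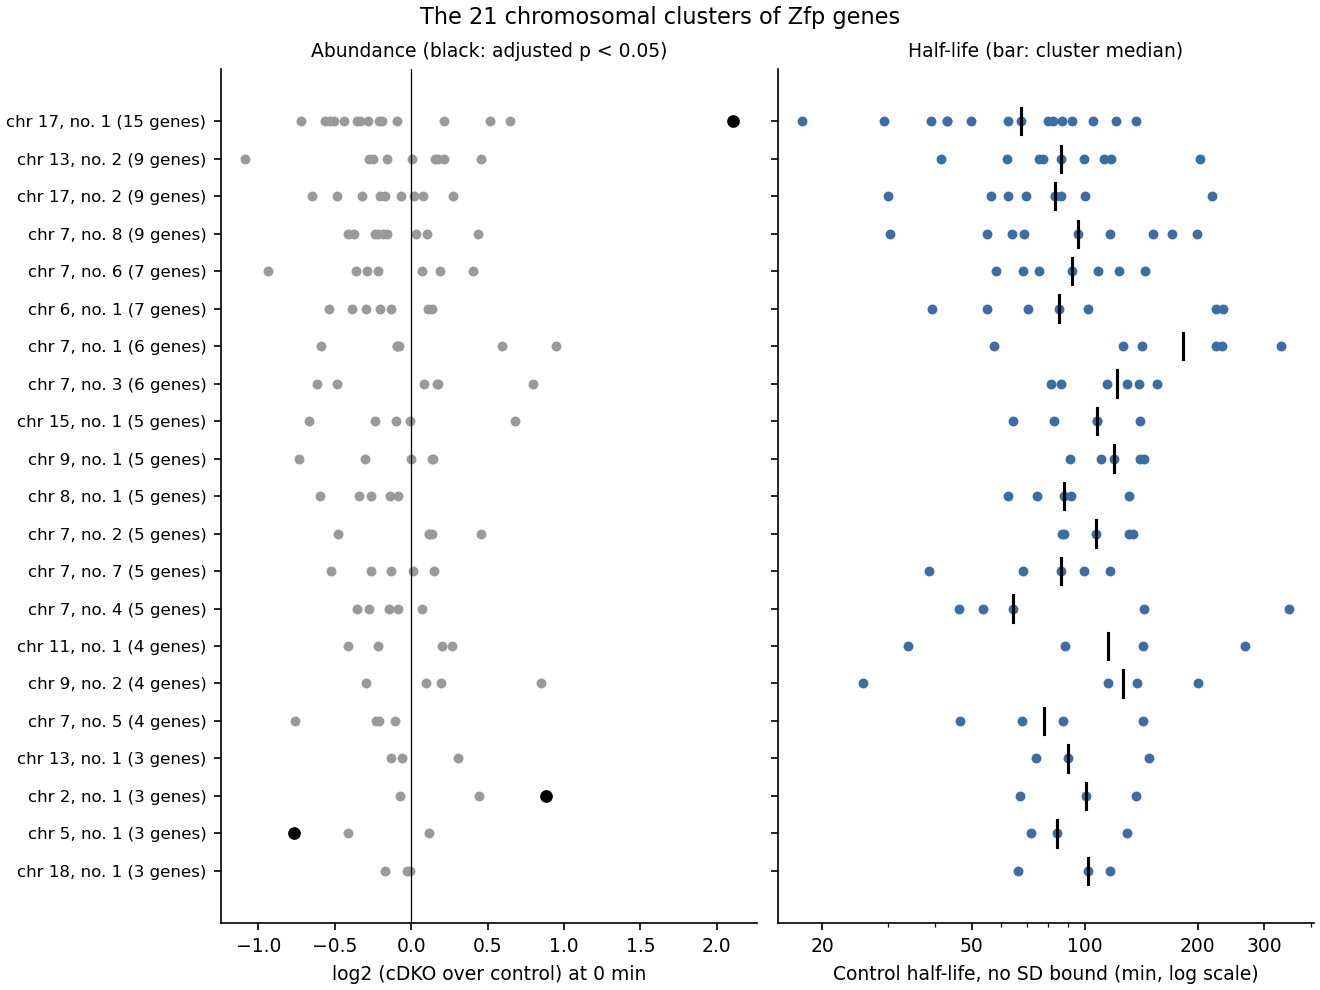
Log2 difference in abundance at 0 min, cDKO over control, of each member of the 21 chromosomal clusters, with a row for each cluster and black points where the adjusted p was below 0.05 (left), and their control half-lives without the SD bound in minutes on a log axis, with a bar at the cluster's median (right). In 18 clusters there are members on both sides of 0, and the 3 called members, Zfp946, Zfp442 and Zfp68, lie in different clusters.

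Of 22 genes listed as KRAB cofactors and silencing machinery, 21 were in the tables. At 0 and 180 min none was called, while 13.4% and 18.9% of all genes were. At 60 min, with 20.2% of all genes called, the heterochromatin protein Cbx3 was higher (log2 0.35, SE 0.11, edgeR adjusted p = 0.040) and the DNA methyltransferase Dnmt1 lower (-0.35, SE 0.10, edgeR adjusted p = 0.038). At 540 min, with 19.2% of all genes called, Cbx5 was higher (0.33, SE 0.08, edgeR adjusted p = 0.023) and the remodeller Chd4 lower (-0.32, SE 0.08, edgeR adjusted p = 0.026). Trim28, the corepressor itself, differed by -0.11, -0.21, -0.18 and -0.09 in time order and passed at no time. The 8 cofactors that met the SD bound had a control median half-life of 230 min and a cDKO median of 251 min, against 96.2 and 117 min for the zinc-finger genes. Without the bound, the 21 cofactors had 239 min in control and 229 min in cDKO, so the order of the genotypes depended on the bound. Among like-named families, 27 Zbtb genes had a median of 103 min in control without the SD bound. Of 35 Zbtb genes, 30 or 31 were tested at each time. Zbtb16, a regulator of blood lineages, was the single one called at all 4 times, higher in cDKO, and the share of all genes called so often was not counted. Of 20 Zscan and Zkscan genes, 13 were tested at each time. Only Zscan22 was called between genotypes, higher at 60 and 540 min (log2 1.34 and 1.06), where 20.2% and 19.2% of all genes were called.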

How the data were processed

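The libraries were QuantSeq 3′ FWD (strand-specific, 85-base single-end reads, 16 PCR cycles, no molecular identifiers). The authors mapped them with SlamDunk 0.4.3 to GRCm38 3′UTR intervals, and the deposited tables give, per interval, read counts, T coverage and conversion counts, a conversion rate (a fraction) and normalised reads (CPM). Counts and coverage were used here, and the deposited rate and CPM were recomputed after duplicate intervals were removed. Of 39419 lines per table, 39091 (99.17%) were matched to a symbol through their RefSeq accession. Replicates are labelled biological triplicates, and the chase time is also the batch label, so the 2 cannot be told apart.

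Read counts were tested with edgeR 4.0.16 in R 4.3.3 (TMM, filterByExpr, glmQLFit and glmQLFTest, over all genes, called at an adjusted p below 0.05), genotypes within each time. DESeq2 1.42.0 was an alternative. Conversions were tested with T coverage as offset, multiplied by the library-wide rate for labelling at 0 min. Half-lives were fitted by least squares with numpy 2.4.6 and bounded to 1 to 10000 min. The tests were checked on simulated data. Copies were searched with blastn 2.17.0. Chase levels of cDKO paired by replicate number (same-number correlations 0.263, 0.539 and 0.617), whereas control and the genotypes did not.

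Named genes were those called at 0 min or at all 4 times, the 5 extremes of half-life and of its ratio, the 3 smallest p of the tests without calls, the 5 highest levels, the largest called chase changes and the extremes of clusters (here of 6 or more members). Members and lists were chosen with earlier results of these data known. Proteins are not printed here.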

Additional observations from a re-analysis of the deposited data

How the results depend on the processing

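Of the values of single named genes, 441 counted as unchanged under the alternatives, and 48 lost and 4 gained the call. For tested values unchanged meant the same direction and side of the threshold. For the 212 half-life ratios among the 441 it meant a move within the spread between replicates, and some of these changed sign. A further 7 half-life ratios moved by more than that spread. Tested values that reversed were Zfp946 at 0 min without reads mapping to several places (-0.13) and, with coverage alone as the offset, the labelling of Zfp111 (-0.17), Zfp267 (-0.48) and Zfp639 (-0.51). With that offset 122 of 187 members and 7444 of all 8753 genes were called, since the lower label of the whole cDKO libraries then counts as a difference. The number of members called at 0 min was 3 with the replicate block, 20 in one fit of all 24 libraries and 1 to 17 with 1 library left out. Over all genes, 1087 of 10186 were called with the block and 2292 of 10846 in the one fit. With 1 library left out the number of members called was 10 to 19 at 60 min, 8 to 16 at 180 min, 5 to 10 at 540 min and 7 to 11 for the control chase. Replicate numbers paired samples only in the cDKO chase, where the replicate block called 1 member. Between genotypes the block gave 15, 11 and 8 members at 60, 180 and 540 min, where it called 1783 of 10141, 1717 of 10142 and 1580 of 10275 genes. The decay term called 4 members with DESeq2. It called 0 to 1 with 1 replicate of 1 genotype left out at all 4 times, the 1 being without cDKO replicate 1. The cause was not tested. The median log2 half-life ratio was -0.071 with a background of 0.1% subtracted (44 members), 0.415 with the log-linear fit and 0.15 to 0.25 with 1 replicate left out. Of the 19 named half-life ratios, which have no test, 10 changed sign under at least 1 alternative and 7 of these with 1 replicate left out, among them Zfp296 (-0.77 without cDKO replicate 2) and Zfp692 (-0.69 without the same). Members that met the SD bound had a median level of 28.9 CPM and those that failed it 10.7 CPM.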
